A study of Mus musculus with 6 samples.

Results

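The 10 genes examined here mark the endothelium of brain vessels and its barrier: Cldn5, Cdh5, Pecam1, Slc2a1, Abcb1a, Mfsd2a, Flt1, Kdr, Tek and Ly6c1. They were taken by symbol, as 10 of the 35415 genes in the deposited count and FPKM files, and all 10 passed the filter on low counts, which 17255 genes passed. RNA-seq was run on the LS of female wild-type C57BL/6 mice, which arrived at about 8 weeks of age and were acclimated for 1 week. The control group then ate maintenance chow, and the olanzapine group ate the same chow with the antipsychotic olanzapine at 50 mg per kg of feed, both for 12 weeks. Each group had 3 libraries, each made from microdissected LS pooled from 3 mice, and values of single mice are not known.

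Endothelial cells line the brain capillaries and are sealed to each other by tight and adherens junctions. They take up glucose and other nutrients through dedicated transporters, pump many drugs back into the blood, and carry out little transport by vesicles, which together form the blood-brain barrier. Their growth and upkeep depend on receptors for vascular endothelial growth factors (VEGF) and angiopoietins, and on pericytes that wrap the capillary wall. The genes that mark these cells are bound in part by transcription factors of the ETS family, whose sites hold the core GGAA.

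The promoters of the 3 growth factor receptors are shown as examples, since these genes were called lower without olanzapine pool 1, as were Abcb1a, Cdh5 and Pecam1. The letters are the 250 bases before the RefSeq transcript start on GRCm38.p6, 5′ to 3′ on the strand of the gene, and capitals mark matches on either strand to the 6-letter ETS sequences CCGGAA and CAGGAA.
Kdr (chr5:75978456-75978705, minus strand): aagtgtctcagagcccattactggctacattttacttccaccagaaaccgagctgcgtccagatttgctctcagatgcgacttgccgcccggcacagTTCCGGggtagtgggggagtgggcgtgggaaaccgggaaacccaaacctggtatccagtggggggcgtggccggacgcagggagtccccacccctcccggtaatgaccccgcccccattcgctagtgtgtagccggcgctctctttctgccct
Tek (chr4:94739039-94739288, plus strand): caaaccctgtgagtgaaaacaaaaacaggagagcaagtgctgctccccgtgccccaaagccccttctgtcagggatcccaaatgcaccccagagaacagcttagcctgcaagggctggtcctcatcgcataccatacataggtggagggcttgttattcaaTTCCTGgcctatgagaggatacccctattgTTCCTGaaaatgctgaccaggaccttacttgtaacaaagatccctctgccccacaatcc
Flt1 (chr5:147726012-147726261, minus strand): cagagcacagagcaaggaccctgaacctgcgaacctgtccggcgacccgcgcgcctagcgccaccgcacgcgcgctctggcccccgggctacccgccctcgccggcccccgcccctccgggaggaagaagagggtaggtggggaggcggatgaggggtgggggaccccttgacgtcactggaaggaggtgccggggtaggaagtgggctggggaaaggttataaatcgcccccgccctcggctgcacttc
The Kdr window held 1 match to CCGGAA and the Tek window 2 matches to CAGGAA, all on the opposite strand, while the Flt1 window held neither sequence. Other GGAA cores, which the Flt1 window also holds, were not marked. Of 32536 promoter windows of this length, 12.1% held CCGGAA, 25.6% held CAGGAA and 35% held either. Promoter entries were found for 8 of the 10 genes, those of Cdh5 and Pecam1 being the exceptions, and no window of Abcb1a, Cldn5, Ly6c1, Mfsd2a or Slc2a1 held a match. The Abcb1a window, chr5:8566841-8567090, lies far before the gene start given below, chr5:8660077, and the bases just before that start were not examined.

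Total counts lay between 38208153 and 39868872 over the 6 pools, and single values of the 10 genes rest on 171 to 5492 raw counts. Olanzapine pool 1 stood apart from the other 5 pools. The summed normalized count of 8 genes of cortical excitatory neurons was 65970 in it, against 13100 to 15294 in the controls, and 17679 and 18402 in olanzapine pools 2 and 3. Slc17a7, which encodes the vesicular glutamate transporter of cortical and hippocampal neurons, had 25735 normalized counts in olanzapine pool 1, 890 to 2152 in the controls, and 822 and 417 in olanzapine pools 2 and 3. Most of the sum outside olanzapine pool 1 came from Nrgn, which encodes neurogranin, and in 5 of the 8 genes, Slc17a7 among them, olanzapine pools 2 and 3 lay below every control. The list's median there was 60.0% and 61.4% of the control mean, close to the medians of the 10 endothelial and barrier genes in the same pools given next, and the part of this tissue in those counts was not tested. The summed count of 10 genes typical of LS neurons was lowest in olanzapine pool 1, at 85415 against 97189 to 127949 in the other pools. The 10 genes were therefore compared both with all 6 pools and without this pool.

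Across all 6 pools, edgeR called 0 of the 10 genes at an adjusted p under 0.05, where it called 2.32% of all genes, and 3 of the 10 had an unadjusted p under 0.05. In olanzapine pools 2 and 3 most of them lay well below every control pool. In the median over the 10 genes, the normalized count was 96.7% of the control mean in olanzapine pool 1, 60.6% in pool 2 and 53.3% in pool 3, against 88.5% to 104% in the control pools. Without olanzapine pool 1, Abcb1a, Tek, Cdh5, Flt1, Kdr and Pecam1 were called lower, where edgeR called 1.11% of all genes lower, with losses between 42.8% and 55.6%. Cldn5, Slc2a1, Ly6c1 and Mfsd2a were not called. The plot of the counts by pool shows both the split within the olanzapine group and the narrow range of Mfsd2a.

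**Figure D1:**
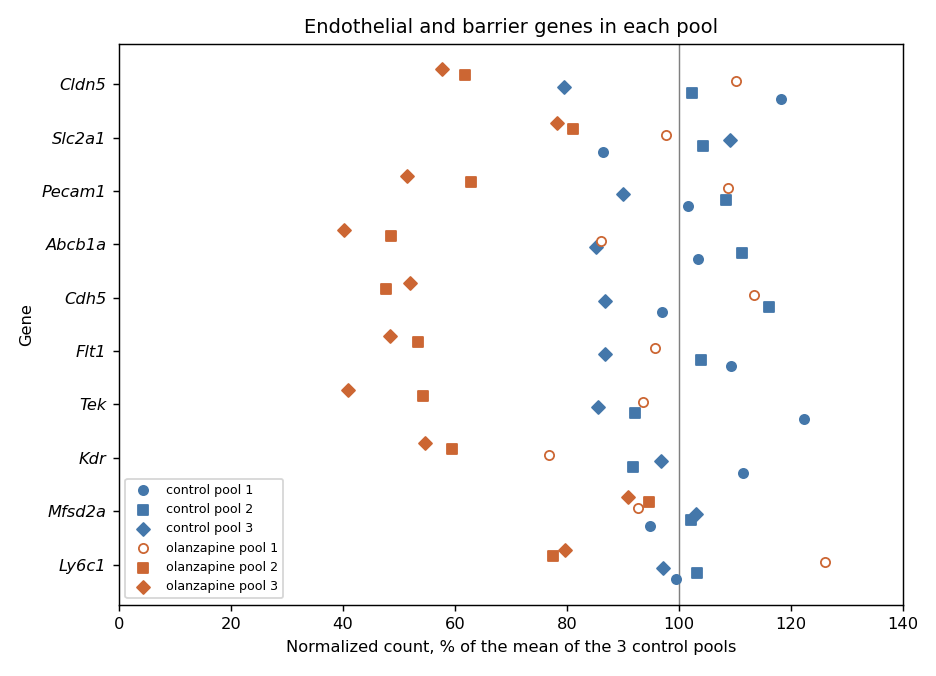
Normalized count of each gene in each pool, as a percentage of the mean of the 3 control pools (horizontal axis), with 1 row per gene. Filled blue symbols are control pools, filled orange symbols are olanzapine pools 2 and 3, and the open circle is olanzapine pool 1, which lay within the control range for 6 of the 10 genes. Olanzapine pools 2 and 3 had a median of 60.6% and 53.3% of the control mean.

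Cldn5 encodes claudin-5, the main claudin of the tight junctions between brain endothelial cells (ENSMUSG00000041378, chr16:18776847-18778262 on GRCm38). Its normalized counts were 809, 699.9 and 543 in control pools 1, 2 and 3, and 754, 423 and 394 in olanzapine pools 1, 2 and 3. Olanzapine pool 1 lay among the controls, and pools 2 and 3 lay below all of them. Over 6 pools its log2 fold change was -0.39 (standard error, SE, 0.26, Benjamini-Hochberg adjusted p = 0.489, edgeR quasi-likelihood test), and -0.74 without olanzapine pool 1 (SE 0.17, adjusted p = 0.0636 from the same test).

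Cdh5 encodes VE-cadherin, the cadherin of endothelial adherens junctions (ENSMUSG00000031871, chr8:104101625-104144511). It had 423, 506 and 379 normalized counts in the controls, and 495, 207 and 226 in the olanzapine pools. Olanzapine pool 1 was thus near the highest control, and pools 2 and 3 had about the same low level. Its log2 fold change was -0.50 (SE 0.32, Benjamini-Hochberg adjusted p = 0.471, edgeR quasi-likelihood test). It was -1.01 without olanzapine pool 1 (SE 0.17, adjusted p = 0.0222 from the same edgeR test), a loss of 50.3% with a 95% interval of 34.9% to 62%.

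Pecam1 encodes the adhesion molecule CD31, which lies at contacts between endothelial cells and is used as a general marker of them (ENSMUSG00000020717, chr11:106654217-106750628). The control pools had 674, 719.7 and 598 normalized counts and the olanzapine pools 722, 418 and 342. The highest value of all 6 was that of olanzapine pool 1, by a narrow margin. The log2 fold change of -0.43 (SE 0.26) had a Benjamini-Hochberg adjusted p of 0.430 in the edgeR quasi-likelihood test. Without that pool it was -0.81 (SE 0.15, adjusted p = 0.0280 from the same edgeR test).

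Slc2a1 encodes GLUT1, the glucose transporter of the barrier (ENSMUSG00000028645, chr4:119108711-119137983). It had 4312, 5204 and 5445 normalized counts in the controls, and 4871, 4041 and 3899.8 in the olanzapine pools. Pools 2 and 3 lay below the lowest control by a small margin. Its log2 fold change was -0.22 (SE 0.12, Benjamini-Hochberg adjusted p = 0.367, edgeR quasi-likelihood test) and -0.33 without olanzapine pool 1 (SE 0.10, adjusted p = 0.129 from the same test). The choroid plexus, the tissue that makes cerebrospinal fluid, also expresses Slc2a1. The summed normalized count of its 10 markers was 5209, 106817 and 295166 in the controls, and 46051, 185949 and 3357 in the olanzapine pools. Slc2a1 was highest and lowest in the same pools as this sum, but olanzapine pool 2 had the next highest sum and the next lowest Slc2a1 count. The part of that tissue in the Slc2a1 counts was not tested.

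Abcb1a encodes P-glycoprotein, the pump that exports many drugs from endothelial cells into the blood (ENSMUSG00000040584, chr5:8660077-8748575). Its normalized counts were 998, 1074 and 822 in the controls, and 831, 469 and 388 in the olanzapine pools. Olanzapine pool 1 was level with the lowest control, and pools 2 and 3 lay far below. This was the largest difference among the 10 genes in both fits, with a log2 fold change of -0.78 over 6 pools (SE 0.26, Benjamini-Hochberg adjusted p = 0.182, edgeR quasi-likelihood test) and -1.17 without olanzapine pool 1 (SE 0.15, adjusted p = 0.00668 from the same edgeR test). The loss in the latter was 55.6%, with a 95% interval of 43.6% to 65.0%.

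Abcb1a has a close copy, Abcb1b, which lies next to it and encodes a second form of the pump. Of the 50-base stretches of Abcb1a exons, 22.5% also occurred in another gene. Abcb1b shared 16.3%, so reads there could be assigned to either gene or dropped in counting. Abcb1b had only 82 to 104 raw counts per pool, or 10.9% of the counts of the pair. Its log2 fold change was -0.08 (SE 0.20, Benjamini-Hochberg adjusted p = 0.870, edgeR quasi-likelihood test), and its normalized counts overlapped between the groups. An exon of Gm42686 overlaps Abcb1a on the other strand, and since the strand setting of the counting is not given in the sources used here, its reads cannot be told apart from those of Abcb1a. The same holds for Gm12868 and Slc2a1.

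Mfsd2a encodes the transporter that brings lysophospholipids with omega-3 fatty acids into the brain and holds back vesicle transport in the endothelium (ENSMUSG00000028655, chr4:122946850-122961188). The 6 values were close together, at 1171, 1263 and 1273 normalized counts in the controls, and 1145, 1168 and 1124 in the olanzapine pools. The log2 fold change was -0.11 with a 95% interval of -0.28 to 0.06 (Benjamini-Hochberg adjusted p = 0.481, edgeR quasi-likelihood test). It was again -0.11 without olanzapine pool 1, with an interval of -0.31 to 0.09, so that a loss of more than 19.2% lay outside the interval. The olanzapine values lay just below the controls in normalized counts but not in FPKM, where olanzapine pool 2 had 9.81 and control pool 1 had 9.31.

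Flt1 encodes VEGF receptor 1, a high-affinity receptor that also limits VEGF signalling (ENSMUSG00000029648, chr5:147561604-147726011). It had 2289, 2175 and 1816 normalized counts in the controls, and 2005, 1116 and 1013 in the olanzapine pools. Here too olanzapine pool 1 lay within the controls and the other olanzapine pools far below. For Flt1 the log2 fold change was -0.60 (SE 0.24, Benjamini-Hochberg adjusted p = 0.248, edgeR quasi-likelihood test) over 6 pools and -0.98 without olanzapine pool 1 (SE 0.11, adjusted p = 0.00426 from the same edgeR test), the smallest adjusted p of the 10 genes. The loss in the latter was 49.2%, with a 95% interval of 39.2% to 57.5%.

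Kdr encodes VEGF receptor 2, which carries most VEGF signalling in endothelium (ENSMUSG00000062960, chr5:75932827-75978458). It had 454, 373 and 394 normalized counts in the controls, and 312, 242 and 222 in the olanzapine pools. Unlike in Flt1, all 3 olanzapine pools lay below all 3 control pools. The log2 fold change of -0.65 (SE 0.17) had the smallest adjusted p of the 10 genes over 6 pools, 0.0999 in the edgeR quasi-likelihood test (Benjamini-Hochberg). Leaving out olanzapine pool 1 gave -0.81 (SE 0.15, adjusted p = 0.0325 from the same edgeR test).

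Tek encodes TIE2, the receptor for angiopoietins (ENSMUSG00000006386, chr4:94739289-94874976). The control pools had 514, 387 and 359 normalized counts and the olanzapine pools 393, 228 and 172. Control pool 1 was the highest and olanzapine pool 1 lay within the controls, with the other olanzapine pools below. Its log2 fold change was -0.67 (SE 0.30, Benjamini-Hochberg adjusted p = 0.296, edgeR quasi-likelihood test) and -1.07 without olanzapine pool 1 (SE 0.21, adjusted p = 0.0368 from the same edgeR test).

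Ly6c1 encodes a small surface protein anchored to the membrane by a lipid, abundant on brain endothelium (ENSMUSG00000079018, chr15:75044018-75048830). Its controls were close together, at 998, 1037 and 975 normalized counts, and the olanzapine pools had 1265, 777 and 799. Olanzapine pool 1 was the highest of the 6 and the other olanzapine pools were the lowest. Its log2 fold change was -0.08 (SE 0.18, Benjamini-Hochberg adjusted p = 0.855, edgeR quasi-likelihood test) over 6 pools, and it was 0.040 without olanzapine pool 2 and 0.024 without olanzapine pool 3. Leaving out olanzapine pool 1 gave -0.35 (SE 0.09, adjusted p = 0.0938 from the same edgeR test). Of its 50-base stretches, 32.8% also occurred in another gene. The copy Ly6c2 shared 21.5% and held 1 to 12 raw counts per pool, or 0.494% of the counts of the pair.

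**Figure D2:**
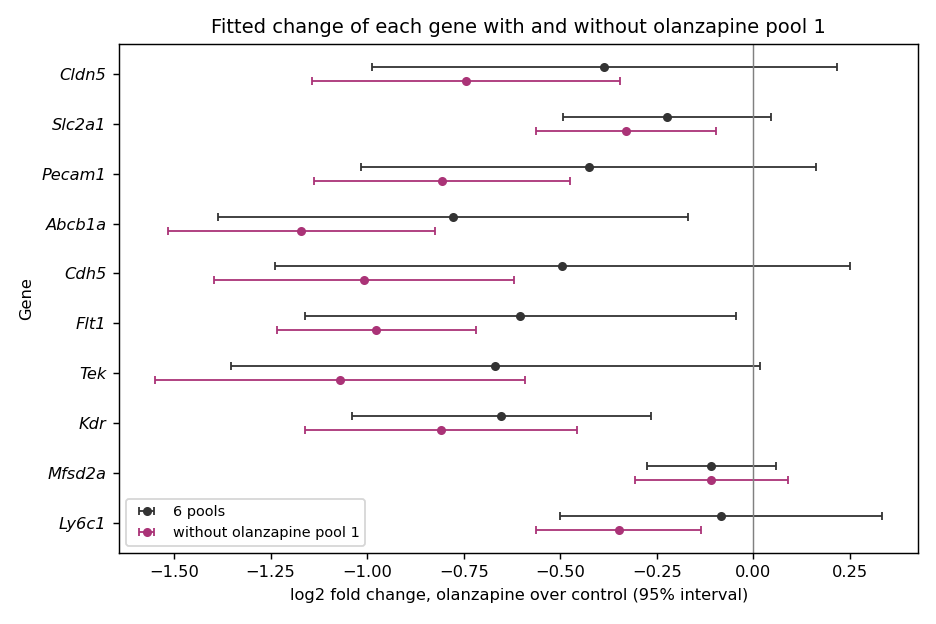
Log2 fold change of each gene, olanzapine over control (horizontal axis), from the fit of all 6 pools (dark) and the fit without olanzapine pool 1 (purple), with points for the estimates and bars for 95% intervals. The intervals of Abcb1a, Flt1 and Kdr lay below 0 over 6 pools, and those of 9 genes, without Mfsd2a, did so when olanzapine pool 1 was left out.

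In counts over the list, the edgeR quasi-likelihood test, Benjamini-Hochberg adjusted, called 0 of the 10 genes over 6 pools, and it called 2.32% of all 17255 genes, with 0.493% called lower. At an unadjusted p under 0.05, 3 of the 10 were lower, namely Abcb1a, Flt1 and Kdr, against 8.4% of all genes. The fitted log2 fold change was below 0 for all 10, as for 49.3% of all genes, and its median was -0.46, against 0.00 over all genes. DESeq2 called Abcb1a and Kdr lower, 2 of 10, where it called 2.85% of all genes lower. When olanzapine pool 1 was left out, edgeR called 6 of 10 lower, where it called 1.11% of 17687 genes lower and 2.87% in either direction, and DESeq2 called 9 of 10, all but Mfsd2a, where it called 4.15%. At an unadjusted p under 0.05, edgeR then had 9 of 10 lower, against 10.1% of all genes, and all 10 had a fitted log2 fold change below 0, against 50.3%. The median log2 fold change without that pool was -0.81, against -0.0016 over all genes tested. In bulk tissue, fewer endothelial cells and less RNA of these genes per cell cannot be told apart.

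Olanzapine pools 2 and 3 both lay below all 3 control pools for all 10 genes in normalized counts, as they did for 18.2% of all tested genes. In FPKM this held for 9 of 10, without Mfsd2a, and for 14.9% of all tested genes. All 3 olanzapine pools lay below all 3 controls for 2 of the 10 in normalized counts, Kdr and Mfsd2a, against 11% of all tested genes. In FPKM it was again 2, Kdr and Abcb1a, against 9.32%. In edgeR, leaving out any other single pool gave 0 calls among the 10, so the edgeR calls rest on the absence of olanzapine pool 1. The DESeq2 calls of Abcb1a and Kdr were made with that pool included.

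Levels were compared between genes per transcript length, in FPKM. In the control group Slc2a1 was highest, at 47.2 ± 6.10 (SD, n = 3 pools), and Kdr lowest, at 1.32 ± 0.123 (SD, n = 3). Between them lay Ly6c1 at 14.5 ± 0.456, Cldn5 at 12.3 ± 2.28, Mfsd2a at 9.94 ± 0.548 and Pecam1 at 5.06 ± 0.454 (SD, n = 3 each). The rest of the order was Abcb1a at 4.73 ± 0.618, Flt1 at 3.81 ± 0.419, Cdh5 at 2.74 ± 0.409 and Tek at 2.17 ± 0.402 (SD, n = 3 each). The ranges of the control pools met for Ly6c1 and Cldn5, for Cldn5 and Mfsd2a, for Pecam1 and Abcb1a, for Abcb1a and Flt1, and for Cdh5 and Tek, and the other neighbours had ranges that did not meet. Within pools, Pecam1 was above Abcb1a, Abcb1a above Flt1 and Cdh5 above Tek in all 6, while Ly6c1 was above Cldn5 in 5 of 6 pools and Cldn5 above Mfsd2a in 3 of 6. Slc2a1, Ly6c1, Cldn5 and Mfsd2a had higher levels than the 3 growth factor receptors in every control pool.

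**Figure D3:**
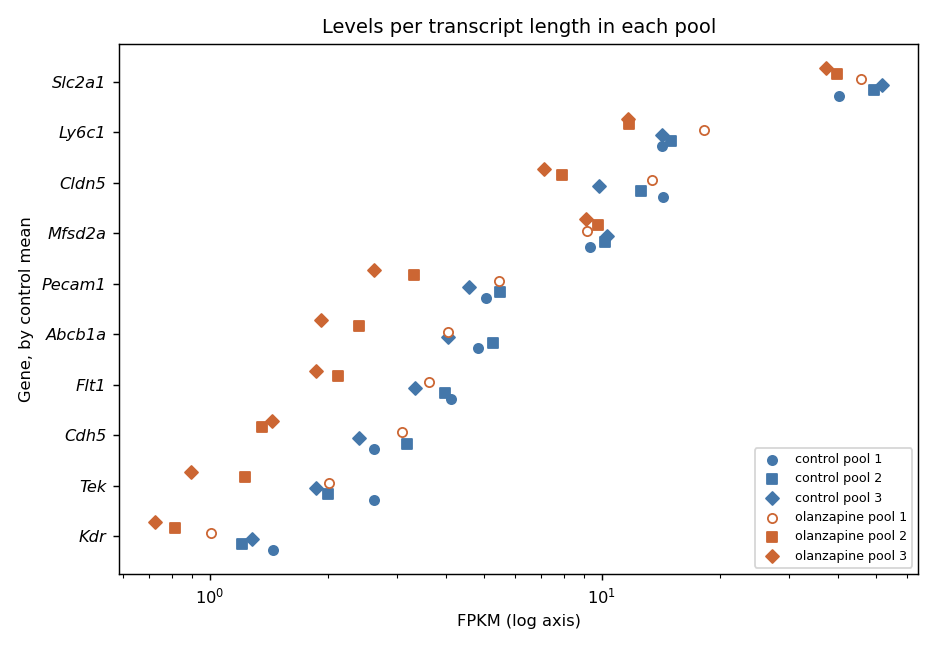
FPKM of each gene in each pool on a log axis, with the genes ordered by their control mean from Slc2a1 (47.2) to Kdr (1.32). Blue symbols are control pools and orange symbols olanzapine pools, with olanzapine pool 1 open; in Slc2a1 and Mfsd2a the 6 pools lie closer together than in Tek or Abcb1a.

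The genes differed in how far they moved. The highest pool had 2.99 times the normalized count of the lowest for Tek, 2.77 times for Abcb1a, 2.44 times for Cdh5 and 2.26 times for Flt1, but 1.63 times for Ly6c1, 1.40 times for Slc2a1 and 1.13 times for Mfsd2a. Set against Pecam1 within each pool, Flt1 varied least. The ratio of their normalized counts lay between 2.67 and 3.39 in the 6 pools, a span of 1.27 times. The span of the ratio was 1.32 times for Cldn5 and 1.33 times for Abcb1a. For Abcb1a the ratio was 1.37 to 1.49 in the controls and 1.12 to 1.15 in the olanzapine pools, pool 1 included. Mfsd2a departed most, as its count was 1.58 to 2.13 times that of Pecam1 in the controls and olanzapine pool 1 and 2.80 and 3.29 times in olanzapine pools 2 and 3. The ratio for Slc2a1 likewise was highest in these pools, at 9.67 and 11.4. These ratios describe the pools and carry no test.

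Transcript length moved with the edgeR calls made without olanzapine pool 1. The 6 genes called in that fit had the longest annotated transcripts of the 10, from 3441 bases in Pecam1 to 6895 in Flt1, and the other 4 had 844 to 3260 bases. Of those 4, DESeq2 without olanzapine pool 1 also called Cldn5, Slc2a1 and Ly6c1. With an offset for transcript length in the fit without olanzapine pool 1, 5 genes were called, where 0.424% of all genes were called lower. Kdr was not called, at a log2 fold change of -0.71 (Benjamini-Hochberg adjusted p = 0.0567, edgeR quasi-likelihood test). The median log2 fold change was then -0.83. With an offset for GC content, 7 were called, where 1.06% of all genes were called lower, the 6 named above and Cldn5 (adjusted p = 0.0494 from the same edgeR test).

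Other genes of endothelium and barrier were taken as 9 lists with 134 genes, of which 128 could be tested. Over 6 pools, 3 of them fell and 1 rose in the edgeR test (0.493% of all genes fell and 1.83% rose), with a median log2 fold change of -0.20. Without olanzapine pool 1, 14 of 129 fell and 1 rose (1.11% of all genes fell and 1.76% rose), with a median of -0.34. Olanzapine pools 2 and 3 lay below all controls for 53 of the 128, against 18.2% of all tested genes. Genes called only in the fit without olanzapine pool 1 are named below after their values were seen.

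Of 12 further junction genes none was called in either fit by edgeR, where 0.493% and 1.11% of all genes were called lower, or by DESeq2, with 2 and 3 at an unadjusted edgeR p under 0.05, and their median log2 fold changes were -0.20 and -0.23. Jam2, an adhesion molecule of tight junctions, had a log2 fold change of -0.23, Tjp1, the scaffold ZO-1, of -0.16 and Ocln, occludin, of -0.60 over 6 pools. The adjusted p of Ocln was 0.187 (Benjamini-Hochberg, edgeR quasi-likelihood test). Its normalized counts were 553, 747 and 883 in the controls, and 459, 592 and 394 in the olanzapine pools, which overlapped.

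Of 20 barrier transporters, Slc16a1, which encodes the lactate and ketone body carrier MCT1, fell over 6 pools. It had 1523, 1383 and 1594 normalized counts in the controls, and 1157, 1094 and 1017 in the olanzapine pools, and the groups did not overlap. The log2 fold change was -0.46 (SE 0.09, Benjamini-Hochberg adjusted p = 0.0380, edgeR quasi-likelihood test). The call held in 1 of the 6 edgeR fits that each left out a pool, the fit without olanzapine pool 1, and the adjusted p reached 0.144 without control pool 1. In the fit without olanzapine pool 1, Slc16a1 (-0.51), Slc7a1, a carrier of cationic amino acids (-0.56, and -0.28 over 6 pools), and Slc7a5, the light chain of the large neutral amino acid carrier (-0.47, and -0.28 over 6 pools), were called lower. Slc38a5, an amino acid transporter, had the largest log2 fold change of the list, -0.75 over 6 pools and -1.26 without olanzapine pool 1, and was called in neither fit (over 6 pools, Benjamini-Hochberg adjusted p = 0.382, edgeR quasi-likelihood test).

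Among VEGF and angiopoietin genes, 1 of 14 fell over 6 pools. Nrp2, a co-receptor for VEGF and semaphorins that neurons also express, had 4511, 3666 and 3122 normalized counts in the controls, and 2165, 2186 and 2403 in the olanzapine pools. All 3 olanzapine pools lay below the controls, with a log2 fold change of -0.74 (SE 0.13, Benjamini-Hochberg adjusted p = 0.0288, edgeR quasi-likelihood test). The call was lost without control pool 1 or 2 or olanzapine pool 2 or 3, with an edgeR adjusted p of up to 0.111. In the fit without olanzapine pool 1, Nrp2, the co-receptor Nrp1 (-0.49, at an edgeR adjusted p just under the threshold) and Ptprb, the endothelial phosphatase that acts on TIE2 (-1.14), were called, 3 of 15. The ligands Vegfa and Vegfb had log2 fold changes of 0.14 and 0.22 over 6 pools and were not called (Benjamini-Hochberg adjusted p = 0.327 and 0.15, edgeR quasi-likelihood test).

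In the Notch list of 12 genes, the receptor Notch1 fell from 1993, 2055 and 1925 normalized counts in the control pools to 1366, 1178 and 1321 in the olanzapine pools. The groups lay apart, with a log2 fold change of -0.63 (SE 0.08, Benjamini-Hochberg adjusted p = 0.00824, edgeR quasi-likelihood test), and the call held in all 6 edgeR fits that each left out a pool (adjusted p up to 0.0494). Neurons and glia express Notch1 too. The ligand Jag1 (-0.91) was called as well without olanzapine pool 1. Of 19 genes of the Wnt signal that forms the barrier none was called in either edgeR fit, with 4 and 8 at an unadjusted p under 0.05, DESeq2 called 1 and 3 lower, and the medians were -0.28 and -0.41. The co-receptor Lrp6 had a log2 fold change of -0.38 over 6 pools.

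Of 25 genes of endothelial identity, edgeR called 0 over 6 pools, with 5 at an unadjusted p under 0.05, and 4 fell without olanzapine pool 1. DESeq2 called 3 lower over 6 pools and 8 without that pool. The ETS factor Erg had 168, 166 and 173 normalized counts in the controls, and 119.5, 63.2 and 64.3 in the olanzapine pools. Its log2 fold change without olanzapine pool 1 was -1.41 (SE 0.21, Benjamini-Hochberg adjusted p = 0.0147, edgeR quasi-likelihood test), and that of Ets1, another ETS factor, was -1.05. Clec14a, an endothelial surface lectin (-1.25), and Adgrf5, an adhesion receptor (-0.94), were the others. In the list of artery and vein genes, Vwf, which encodes von Willebrand factor, fell without olanzapine pool 1 (-0.67, and -0.39 over 6 pools). Lcn2, which encodes the iron-binding protein lipocalin 2, rose over 6 pools from 6.99, 8.88 and 9.91 normalized counts to 68.0, 89.9 and 102 (log2 fold change 3.31, SE 0.34, Benjamini-Hochberg adjusted p = 0.00359, edgeR quasi-likelihood test). The call held in all 6 fits that left out a pool. Lcn2 is also made by hepatocytes, reactive astrocytes and neutrophils.

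Of 8 caveolae and uptake genes, Lrp1, a receptor of many ligands also found in neurons and astrocytes, fell in the fit without olanzapine pool 1 (-0.51). Over 6 pools edgeR called 0, and 3 had an unadjusted edgeR p under 0.05 in both fits. DESeq2 called 2 lower over 6 pools and 1 without olanzapine pool 1. None of the 6 testable genes of endothelial activation was called in either fit by edgeR or DESeq2, with 0 at an unadjusted edgeR p under 0.05, and 4 of the 10 listed, Sele, Selp, Ackr1 and Ccl2, had too few counts to be tested. Icam1, a leukocyte adhesion molecule, had a log2 fold change of -0.49 over 6 pools. Among cells beside the endothelium, 2 of 14 pericyte genes fell without olanzapine pool 1, the signalling regulator Rgs5 (-0.59, and -0.30 over 6 pools) and the potassium channel subunit Abcc9 (-0.76), while edgeR called 0 and DESeq2 2 over 6 pools. The list medians were -0.34 over 6 pools and -0.54 without olanzapine pool 1. Of 8 smooth muscle genes none was called in either fit by edgeR or DESeq2, with 0 and 3 at an unadjusted edgeR p under 0.05, with medians of 0.09 and -0.26.

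**Figure D4:**
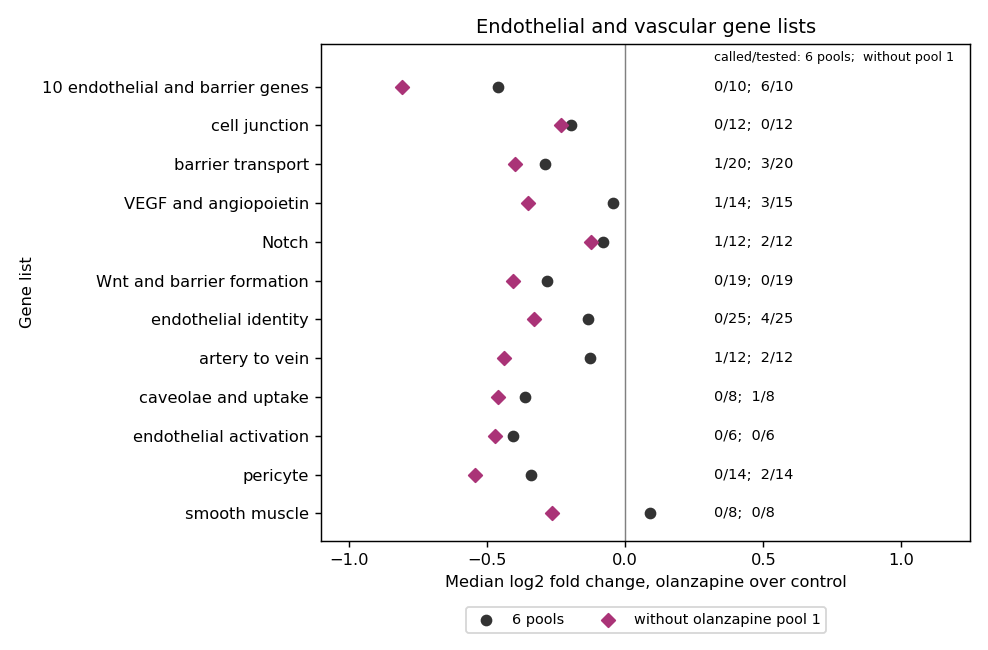
Median log2 fold change, olanzapine over control (horizontal axis), of the 10 genes and of 11 other endothelial and vascular lists, over 6 pools (dark circles) and without olanzapine pool 1 (purple diamonds), with the number of genes called in either direction of those tested at the right. The 10 genes had the lowest median in both fits, at -0.46 and -0.81, and smooth muscle had the only median above 0, over 6 pools.

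Marker lists of other cell types and regions were set beside the counts of the 10 genes in each pool. Of 10 hepatocyte genes, all 10 rose in the olanzapine group, and their summed normalized count was 638 to 1028 in the controls, and 10312 to 12908 in the olanzapine pools. All 3 olanzapine pools were raised, olanzapine pool 1 included, whereas 8 of the 10 endothelial and barrier genes lay within or above the control range in olanzapine pool 1, Kdr and Mfsd2a being below it. Of 10 genes of liver endothelium 5 could be tested and none was called in either edgeR fit. Their sum was 213 to 301 in the controls and 256 to 296 in the olanzapine pools, and Clec4g, Oit3 and Gata4 had at most 3 counts in every pool. Nuclear long noncoding RNAs, of which 4 of 6 were called higher over 6 pools, summed to 88299 to 109661 in the controls and 197753 to 239755 in the olanzapine pools.

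Striatal markers, 8 genes, summed to 96065 and 93658 normalized counts in olanzapine pools 2 and 3, against 46407 to 80412 in the controls and 48254 in olanzapine pool 1. Both olanzapine pools with low endothelial counts thus had the highest striatal sums. edgeR called 0 of the 8 striatal genes over 6 pools, with 1 at an unadjusted p under 0.05 and a median log2 fold change of 0.29. Without olanzapine pool 1 it called 1 higher, with 7 at an unadjusted p under 0.05 and a median of 0.55. DESeq2 called 1 higher in both fits. Astrocyte markers, in the median over 10 genes, were at 83.4% to 98.5% of the control mean in the olanzapine pools and 94.3% to 104% in the controls. Their sums did not overlap, at 222691 to 244949 in the controls and 192794 to 217379 in the olanzapine pools. Neither edgeR fit called any of the 10, with 3 and 2 at an unadjusted p under 0.05. DESeq2 called 1 lower without olanzapine pool 1. None of the fibroblast, microglia, oligodendrocyte or blood cell genes tested was called in either edgeR fit, DESeq2 called 1 fibroblast gene lower in both, and their sums overlapped between the groups. Choroid plexus sums ranged widely within both groups, from 5209 to 295166 in the controls and from 3357 to 185949 in the olanzapine pools. The part of these tissues in the endothelial counts was not tested.

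**Figure D5:**
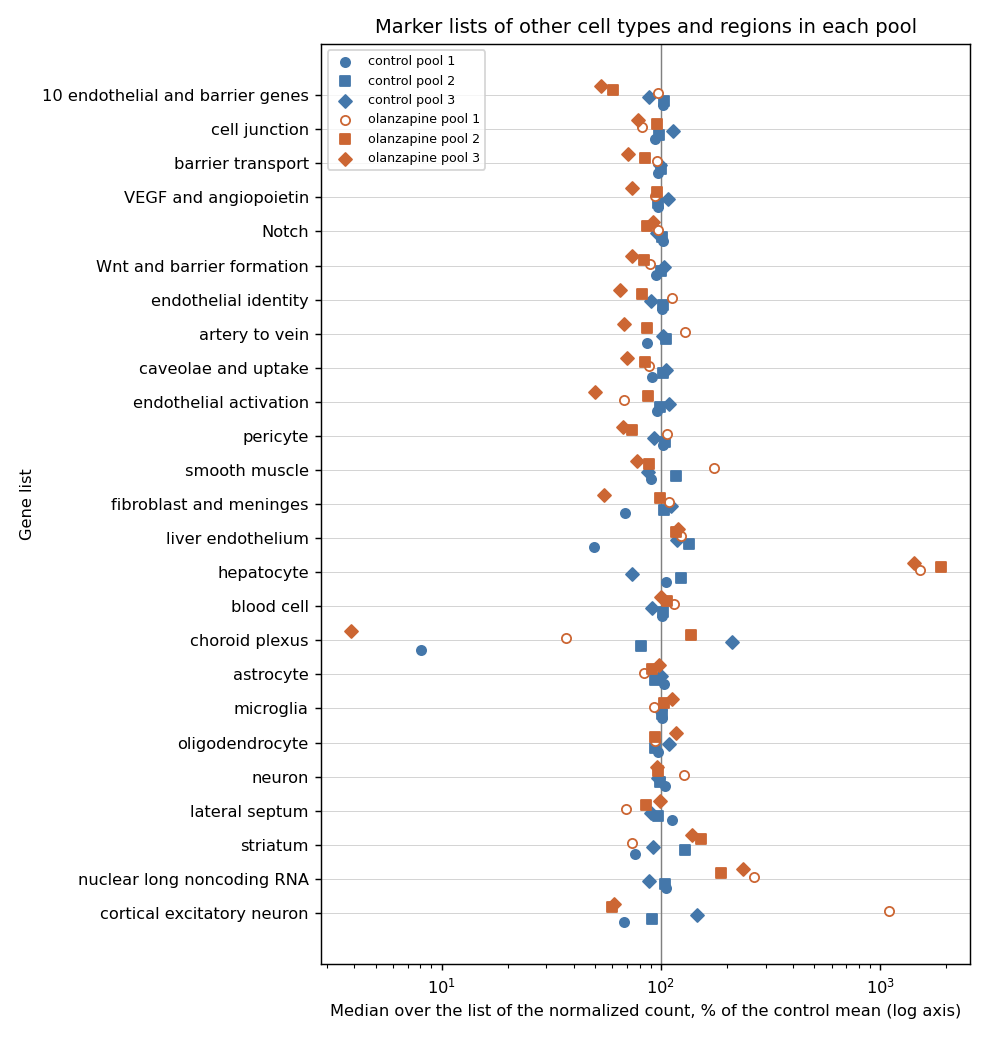
Median over each gene list of the normalized count in each pool, as a percentage of the control mean on a log axis, with the lists in rows and the pools as symbols. Olanzapine pool 1 (open circle) lies at 1098% for the list of cortical excitatory neurons, the 3 olanzapine pools lie at 1429% to 1892% for hepatocyte genes, and olanzapine pools 2 and 3 lie at 60.6% and 53.3% for the 10 endothelial and barrier genes.

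The genes most like the 10 were sought by Pearson's r between log2 CPM and the mean standardized log2 CPM of the 10 genes, over 6 pools and among 14269 genes with a mean of at least 50 counts. The 5 highest were Gimap6 (0.995), Vwf (0.993), Tmem245 (0.993), Zfp703 (0.992) and Smyd3 (0.992). Gimap6 had 107, 118 and 92.2 normalized counts in the controls, and 96.9, 51.4 and 45.2 in the olanzapine pools, so that olanzapine pool 1 again lay with the controls. Among the 50 genes with the highest r, 8, or 16%, were in the vascular lists, which made up 0.932% of the genes compared. These correlations share the 6 libraries and mainly describe the split between olanzapine pools 2 and 3 and the rest.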

How the data were processed

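The data are 6 RNA-seq libraries of LS, 3 per group. Per the paper's methods and the submitters' processing notes, the authors cleaned paired 150 bp reads with fastp, mapped them to mm10 with HISAT2 and obtained gene counts with HTSeq. They deposited the raw counts and FPKM, which are normalized to transcript length and library size. Counting by strand and of reads that match several places is not given in the sources used here. The number of per-sample columns not used was 0.

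Counts were tested with edgeR 4.0.16 in R 4.3.3 (TMM factors, quasi-likelihood F test, group as the only term) after filterByExpr (minimum count 10, scaled by library size and needed in as many libraries as the smaller group has, and 15 counts in total). A gene was called, or said to have risen or fallen, at a Benjamini-Hochberg adjusted p under 0.05 over all tested genes. Normalized counts are counts divided by TMM-scaled library sizes and put on the mean library size. Standard errors are the log2 fold change divided by the square root of F, and intervals are 95% intervals from the t distribution. The test was checked on simulated counts.

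Alternatives were DESeq2 1.42.0, RLE or upper-quartile factors, no filter or a mean of 50 counts, a replicate block, limma 3.58.1 on log2 FPKM (pseudocount 1 or 0.1, genes filtered at a mean of 0.1 or unfiltered), a log2 fold change limit of 1, and leaving out each pool. Offsets for transcript length and GC content (lowess span 0.3), and DESeq2 and limma without olanzapine pool 1, were chosen after seeing the data, as was the cortical list. The 10 genes and all lists were chosen with earlier results of these data known. Named are the 10 genes, the copies Abcb1b and Ly6c2, called genes of each list with at most 3 by p, the 2 with the highest FPKM, the largest fold change at a mean of 50 counts or more, and the 5 genes of highest r. Not all of these are described, and the results of some single genes are left out. Transcript length and GC content came from GENCODE for GRCm38 and were known for 92.7% of tested genes. The functional ultrasound and serum data were not used here.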

Additional observations from a re-analysis of the deposited data

How the results depend on the processing

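The number of the 10 genes called was 0 over 6 pools and stayed 0 under RLE and upper-quartile factors, both count filters, limma on FPKM, the fold change limit and either offset with all pools. It was 2 with DESeq2, and 0 to 6 in edgeR when each pool was left out, with 6 only without olanzapine pool 1. Without that pool it was 9 with DESeq2, 7 with the GC offset, 5 with the length offset and 2 with limma on log2(FPKM + 1). Their median log2 fold change ranged from -0.81 to -0.27 when each pool was left out, and was -0.81 with DESeq2 and -0.83 with the length offset without olanzapine pool 1. In the fits without olanzapine pool 2 and without olanzapine pool 3, the log2 fold change of Ly6c1 turned to 0.040 and 0.024, against -0.35 without olanzapine pool 1. Those of the other 9 genes stayed below 0 in all settings.

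For all genes, 316 were called higher and 85 lower over 6 pools. DESeq2 gave 662 and 492, and 607 and 734 without olanzapine pool 1. A log2 fold change limit of 1 left 164 and 10, and leaving out each pool gave 125 to 312 higher and 2 to 196 lower. The number lower was 48 with the length offset, 75 with it and 187 with the GC offset without olanzapine pool 1, 40 with limma on log2(FPKM + 1), 38 with a pseudocount of 0.1, 22 without the FPKM filter and 34 with limma without olanzapine pool 1. Of the other endothelial lists 4 genes were called over 6 pools, 14 with DESeq2, 2 with limma at a pseudocount of 1, filtered or not, 1 with the fold change limit and 2 to 15 when each pool was left out. Without olanzapine pool 1 the number was 27 with DESeq2, 14 with the GC offset and 9 with the length offset. The cause was not tested.

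With the replicate number as a block, 0 of the 10 genes were called, with a median of -0.55, 128 genes were higher and 12 lower, and 2 genes of the other endothelial lists were called. Same-numbered pools correlated at -0.0026, 0.06 and -0.25 in their deviations from the group means, and unlike-numbered pools at -0.35 to 0.34. The labels do not say whether the numbers pair pools, and so few correlations cannot decide it. With 3 pools per group, 1 library, olanzapine pool 1, decides the edgeR calls of the 10 genes, while DESeq2 called Abcb1a and Kdr with it included.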
